A study of Mus musculus with 2 samples.

Results

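Most Ube2 genes encode E2 ubiquitin-conjugating enzymes. Trim genes encode tripartite motif proteins, most of which are E3 ubiquitin ligases. All protein-coding genes with a symbol starting Ube2, or Trim followed by a digit, were taken from the RefSeq annotation of GRCm38.p6 (the assembly also named mm10). They were 37 Ube2 and 68 Trim genes, 105 of 21775 placed nuclear protein-coding genes. Gata1 chromatin immunoprecipitation sequencing (ChIP-seq) had been carried out on 1 pool of mouse cells. The cells were positive for the Runx1-ires-GFP and Gata1::mCherry reporters, were sorted on day 5 of embryoid body culture, in which embryonic stem cells were led towards blood, and are called primitive erythroid in the series. The series has 1 Gata1 library, made with a rabbit antibody, and 1 input chromatin library from cells of the same description, whose antibody field names a rabbit IgG and which was not analysed here. The deposited list gives 4135 peaks as positions only, each 400 bp wide, so a site is either called or not called.

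In ubiquitin conjugation an E1 enzyme activates ubiquitin, an E2 carries it, and an E3 ligase brings the loaded E2 to a substrate. Related cascades attach SUMO, NEDD8 or ISG15. Maturing red cells dismantle much of their proteome, and several members have known parts in that process. Ube2o marks excess ribosomal and globin proteins for removal, Ube2h is the partner E2 of the CTLH ligase, Trim58 acts on dynein in late erythroblasts, and Trim10 (also called HERF1) is a red cell Trim protein. Gata1 is the zinc finger factor that directs this lineage, and it binds DNA at GATA motifs.

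The peak list carried peaks at genes of the labelled cell type. Within 10 kb of the gene body, itself included, 11 of 12 primitive erythroid markers had a peak midpoint, Hbb-bh1 being the exception. The counts were 4 of 6 for megakaryocyte, 3 of 7 for endothelial, 1 of 7 for myeloid and 1 of 5 for pluripotency markers. In that order, the 95% Wilson intervals were 30.0 to 90.3%, 15.8 to 75.0%, 2.57 to 51.3% and 3.62 to 62.4%. Over all protein-coding genes the share was 16.5%, which lies inside all of these intervals except that of the megakaryocyte markers. A peak near a gene does not measure its expression, and Gata1 is itself used in other blood lineages. These counts therefore do not test the cell type label. Read depth is unknown, because the list holds no counts. With 1 list there is no replicate error and no test between conditions, and all intervals below are 95% Wilson intervals that cover the counting of genes only.

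Among the members with a promoter window, 3 promoters overlapped a peak, and their sequences are shown for the motifs they hold. RefSeq promoter windows (250 bases before to 50 after an annotated start) were available for 83 of the 105 members, in 108 windows. Those of Trim10 and Ube2l6 lay wholly within a peak, with 300 of 300 bases, and that of Trim56 had 122 bases in a peak. Over all protein-coding genes, 452 of 21262 such windows (2.13%) had a base in a peak. The 250 bases before each start are printed below, 5′ to 3′ on the gene's strand, from RefSeq on GRCm38.p6. They lie wholly in the peak for Trim10 and Ube2l6, while for Trim56 only the first 122 printed bases do, and each peak extends beyond the printed bases. Capitals mark GATA on either strand (read as TATC on the other) and its longer forms. The longer forms are AGATAA, its variant ending in G (AGATAG), and the same pair starting with T (TGATAA and also TGATAG). Each contains GATA, so the matches overlap. The positions are chr17:36869324-36869573 (plus strand) for Trim10, chr2:84798578-84798827 (plus strand) for Ube2l6 and chr5:137116208-137116457 (minus strand) for Trim56.
Trim10: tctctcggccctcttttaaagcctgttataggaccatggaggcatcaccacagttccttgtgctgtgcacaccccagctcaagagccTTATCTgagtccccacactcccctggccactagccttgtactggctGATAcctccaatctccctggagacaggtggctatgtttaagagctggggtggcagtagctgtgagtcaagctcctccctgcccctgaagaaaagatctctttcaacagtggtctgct
Ube2l6: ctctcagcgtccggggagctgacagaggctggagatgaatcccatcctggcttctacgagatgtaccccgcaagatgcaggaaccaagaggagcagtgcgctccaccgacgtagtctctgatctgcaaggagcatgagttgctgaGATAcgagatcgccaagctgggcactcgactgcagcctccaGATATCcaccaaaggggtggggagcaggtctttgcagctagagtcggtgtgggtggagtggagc
Trim56: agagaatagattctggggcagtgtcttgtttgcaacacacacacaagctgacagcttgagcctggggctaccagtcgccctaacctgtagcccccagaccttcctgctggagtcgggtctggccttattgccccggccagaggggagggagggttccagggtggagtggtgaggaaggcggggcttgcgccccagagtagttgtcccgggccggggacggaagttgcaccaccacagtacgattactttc

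Trim10 was the one member of these 3 whose window held a longer form. AGATAA lay on the opposite strand, 163 to 158 bases before the start site, and a second GATA core lay on the gene's strand 117 to 114 bases before it. Ube2l6 had 3 GATA cores and no longer form. The first lay 105 to 102 bases before the start, and the other two overlap each other on opposite strands, from 64 to 59 bases before it. Neither motif was found in the Trim56 window. Such matches are frequent: 53.2% of the 21262 windows of protein-coding genes held GATA and 26.0% held a longer form, and among the 452 windows with a base in a peak the shares were 65.5% and 40.5%. In the 108 member windows the shares were 43.5% (34.6 to 52.9%) and 13.9% (8.60 to 21.7%). Windows of 1 gene can overlap, so they are not independent, and the differences between these shares were not tested.

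Gata1 peaks lay at 16 of the 105 members (15.2%, 9.60 to 23.3%), and the background was 16.5% (3597 of 21775 protein-coding genes). By family, 8 of 37 Ube2 genes (21.6%, 11.4 to 37.2%) and 8 of 68 Trim genes (11.8%, 6.08 to 21.5%) had a peak, with the midpoint inside the gene body or at most 10 kb outside it. Both intervals contain the background share. 18 distinct peaks lay in the windows of the 16 genes, 10 at Ube2 and 8 at Trim genes. Ube2d2a, Ube2l6 and Trim71 had 2 peaks each and the other members with a peak had 1, with Trim10 and Trim15 sharing theirs. No member had 3 or more peaks, and only 145 of all 21775 protein-coding genes did.

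**Figure D1:**
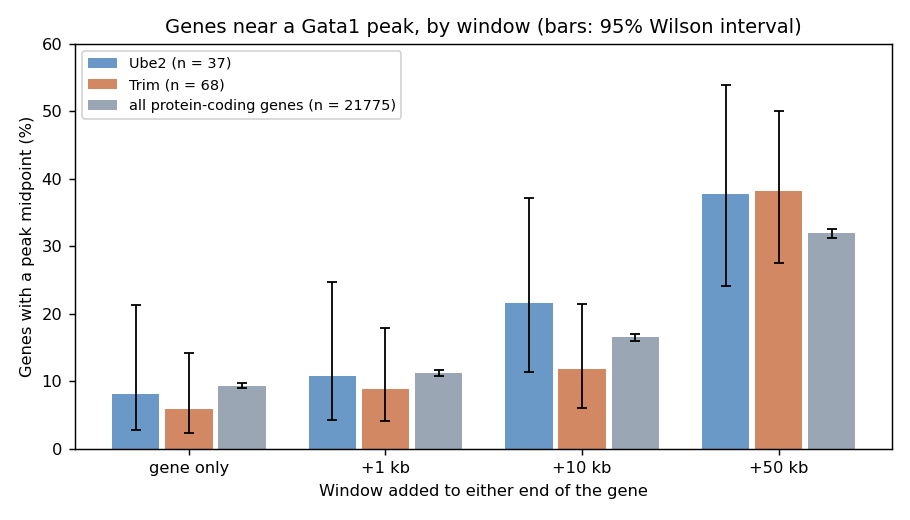
Share of genes with a Gata1 peak midpoint (%) against the window added to either end of the gene, for Ube2 genes, Trim genes and all protein-coding genes; error bars are 95% Wilson intervals. At 10 kb the Ube2 bar stands at 21.6%, the Trim bar at 11.8% and the bar of all protein-coding genes at 16.5%, and the intervals of both families contain the bar of all genes at each window.

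The counts rose with the window for both families and for all genes, though not by the same factor. Within the gene body alone, 3 Ube2 and 4 Trim genes held a peak (8.11% and 5.88%, background 9.34%). With 1 kb added, 4 Ube2 and 6 Trim genes did (10.8% and 8.82%, background 11.3%). With 50 kb, 14 Ube2 and 26 Trim genes did (37.8% and 38.2%, background 32.0%). Longer genes have more room for a peak. In quartiles of gene length, from shortest to longest, the background was 8.45%, 15.5%, 17.2% and 25.0%. The members' counts in those quartiles were 1 of 9, 6 of 39, 5 of 34 and 4 of 23. Protein-coding genes with the same mix of length quartiles as the Ube2 genes would have a share of 18%, and 17.2% for the mix of the Trim genes. The median distance from a gene body to the nearest peak midpoint was 167 kb for Ube2 genes and 120 kb for Trim genes, and 135 kb for all protein-coding genes.

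**Figure D2:**
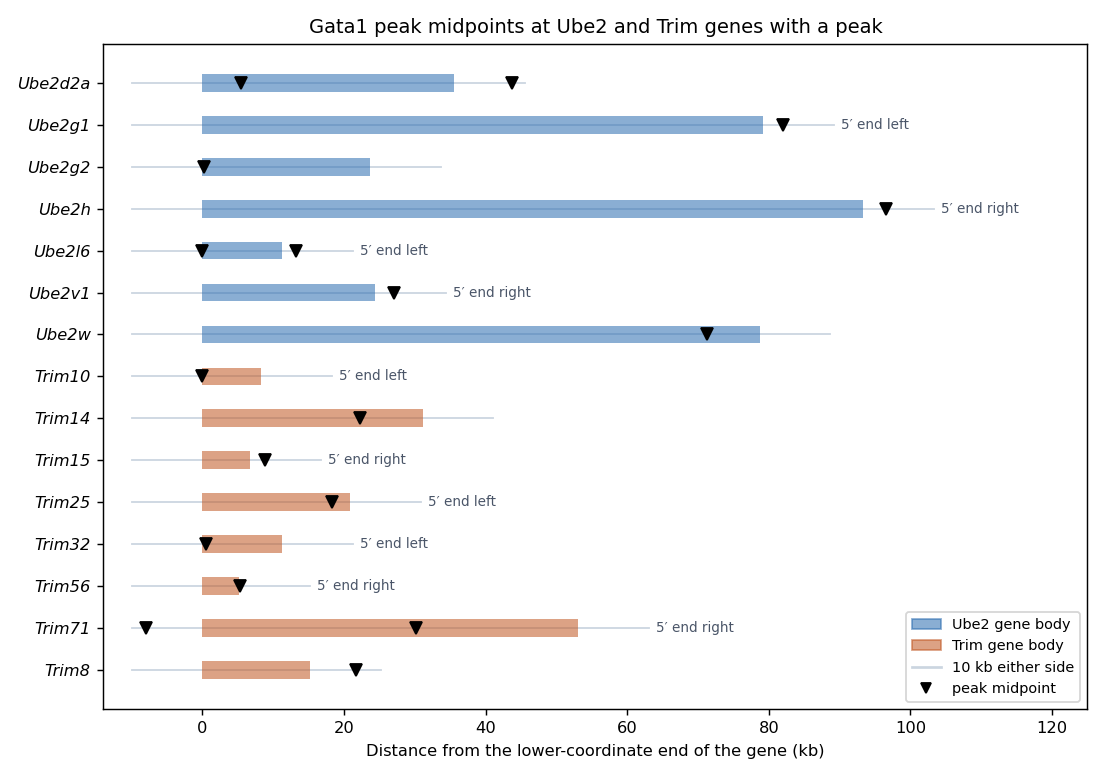
Position of each Gata1 peak midpoint (triangles) along 15 of the 16 Ube2 and Trim genes with a peak, in kb from the lower-coordinate end of the gene; coloured bars are gene bodies, thin lines the 10 kb either side, and text gives the side of the 5′ end where a start site was available. The peaks of Trim10, Trim56, Trim32 and Ube2g2 and 1 of the 2 peaks of Ube2l6 sit at a gene end, while those of Ube2w, Trim14 and Trim25 and 1 of the 2 of Trim71 lie further inside the gene.

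Among the Trim genes, the erythroid member Trim10 carried a peak at its start and the erythroid member Trim58 had none in its window. Trim10 lies on chromosome 17, from 36869496 to 36877833. Its peak was at chr17:36869265-36869664, and its midpoint lay 110 bases before the annotated start site. The same peak lay 2.25 kb upstream of the start of Trim15, a PRY/SPRY protein gene that runs in the opposite direction, and was nearer to Trim10. Trim58 lies on chromosome 11, from 58640465 to 58652404. Its nearest peak, at chr11:58618150-58618549, was 22.1 kb upstream of its start site, and the coding gene nearest to that peak was 2210407C18Rik.

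Most Trim genes were grouped as PRY/SPRY genes and their relatives, many of which act in innate immunity. All Trim genes not placed in another group were taken into it, without a check of their domains. Of these, 4 of 40 had a peak (interval of the share 3.96 to 23.1%), namely Trim10, Trim14, Trim15 and Trim25. Trim25, a ligase of antiviral RNA sensing that also attaches ISG15, held a peak at chr11:89017470-89017869, 18.3 kb after its start site and 2.62 kb from its other end. Trim14, which lacks the RING domain of most Trim proteins and serves as an antiviral adaptor, held a peak at chr4:46527203-46527602, 8.75 kb inside its higher-coordinate end. Both peaks lay inside the gene body, and both genes were the nearest coding gene to their peak.

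The NHL-repeat group had 2 of its 4 genes with a peak (interval of the share 15.0 to 85.0%, beside 16.5% of all protein-coding genes). Trim71 (also called LIN-41), an RNA-binding regulator of early embryonic cells, held a peak at chr9:114541193-114541592, 23.0 kb after its start site. A second Trim71 peak, at chr9:114503034-114503433, lay 8.04 kb beyond the gene's downstream end and inside the neighbouring chemokine receptor gene Ccr4. Trim32, a ligase known for its part in muscle, had its peak at chr4:65605253-65605652, 466 bases after its start site. Trim32 lies inside the much longer Astn2, so the peak is in both genes. The other NHL genes, Trim2 and Trim3, had their nearest peaks at 44.2 and 1691 kb.

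Of the Trim genes without a PRY/SPRY domain, or of other kinds, 2 of 13 had a peak (15.4%, 4.33 to 42.2%, beside the background of 16.5%). The Trim56 peak, at chr5:137116336-137116735, had its midpoint 328 bases before the start site, and Trim56, an antiviral ligase, was the only coding gene within 10 kb. Trim8, a regulator of cytokine signalling, had a peak at chr19:46523141-46523540, 6.54 kb above its higher-coordinate end, with Arl3 at 7.77 kb from the same peak. No peak lay in the window of the 7 genes listed here as having a COS domain, a class of cytoskeleton and sarcomere proteins. A count of 0 of 7 allows a share of up to 42.9%. The same was found for the 4 PHD-bromodomain corepressors Trim24, Trim28, Trim33 and Trim66, where 0 of 4 allows a share of up to 75.0%. The nearest of that group was Trim28 (also called KAP1), 14.3 kb from a peak inside Zbtb45.

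Clustered Trim genes shared their peaks or had none. In the cluster on chromosome 17, 5 Trim genes (Trim26, Trim15, Trim10, Trim40 and Trim31) span 73.1 kb and held only the Trim10 peak. That peak was also nearest to Trim26, at 10.1 kb, Trim40, at 12.1 kb, and Trim31, at 28.7 kb. The cluster of 10 genes on chromosome 7 (Trim6, Trim34a, Trim5, Trim12a, Trim34b, Trim12c, Trim30b, Trim30c, Trim30a and Trim30d) spans 289 kb without a peak. Its members had a common nearest peak, at chr7:103912959-103913358, which was 306 kb from the nearest of them and 557 kb from the furthest. A count of 0 of 10 allows a share of up to 30.0%, and these genes are neighbours, several of them near copies, so they are not independent. Whether reads could be placed uniquely among the copies was not tested.

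Among the Ube2 genes, the peak closest to an annotated start site was that of Ube2l6, the E2 for ISG15. The peak at chr2:84798557-84798956 had its midpoint 72 bases before the start site, over the promoter printed above. The second Ube2l6 peak, at chr2:84811829-84812228, lay 2.02 kb beyond its downstream end and inside Smtnl1. The NEDD8 enzymes Ube2m and Ube2f had their nearest peaks at 25.2 and 247 kb.

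Of the 4 E2s of endoplasmic reticulum protein degradation, Ube2g1 and Ube2g2 had a peak and Ube2j1 and Ube2j2 did not. The interval of this share was 15.0 to 85.0%, which contains the background of 16.5%. The Ube2g2 peak, at chr10:77622308-77622707, spanned the lower-coordinate end of the gene, with its midpoint 0.186 kb inside. Sumo3, a gene for SUMO, lay 4.18 kb from it and held a further peak of its own, 10.6 kb below Ube2g2. The Ube2g1 peak, at chr11:72689061-72689460, lay 2.78 kb beyond the gene's downstream end and was nearer to Ankfy1, at 0.742 kb. Ube2j1 and Ube2j2 were 114 and 170 kb from their nearest peaks.

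Of the 2 E2s with a known red cell role, Ube2h had a peak upstream of its start and Ube2o had none nearby. The Ube2h peak, at chr6:30307663-30308062, lay 3.32 kb before the start site, inside the noncoding gene 1700095J07Rik, and Ube2h was the only coding gene within 10 kb. The nearest peak to Ube2o lay 168 kb away, inside Rnf157. Neither Ube2o nor Trim58 is thereby shown to be unbound, since a site below the unstated peak threshold would not be listed.

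Further Ube2 peaks belonged to Ube2v1, Ube2d2a and Ube2w. Ube2v1, the catalytically inactive partner of Ube2n in building signalling ubiquitin chains, had a peak at chr2:167634475-167634874, 2.67 kb before its start site and inside the noncoding gene Gm31852. Ube2n itself lay 17.8 kb from its nearest peak. Ube2d2a, a broadly used E2 of the UBCH5 type, had a peak in the gene at chr18:35776868-35777267, 5.51 kb from its lower-coordinate end, and another 8.06 kb above the gene, with no other coding gene near either. It was the only 1 of 9 UBCH5 and UBE2E genes with a peak (11.1%, 1.99 to 43.5%, beside the background of 16.5%). Ube2w, which attaches ubiquitin to protein N termini, held a peak at chr1:16611799-16612198, 7.46 kb inside its higher-coordinate end. Neither the RAD6 genes Ube2a and Ube2b nor the cell cycle E2 genes Ube2c and Ube2s had a peak in their windows, and the nearest lay at 307, 301, 1110 and 64.5 kb.

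**Figure D3:**
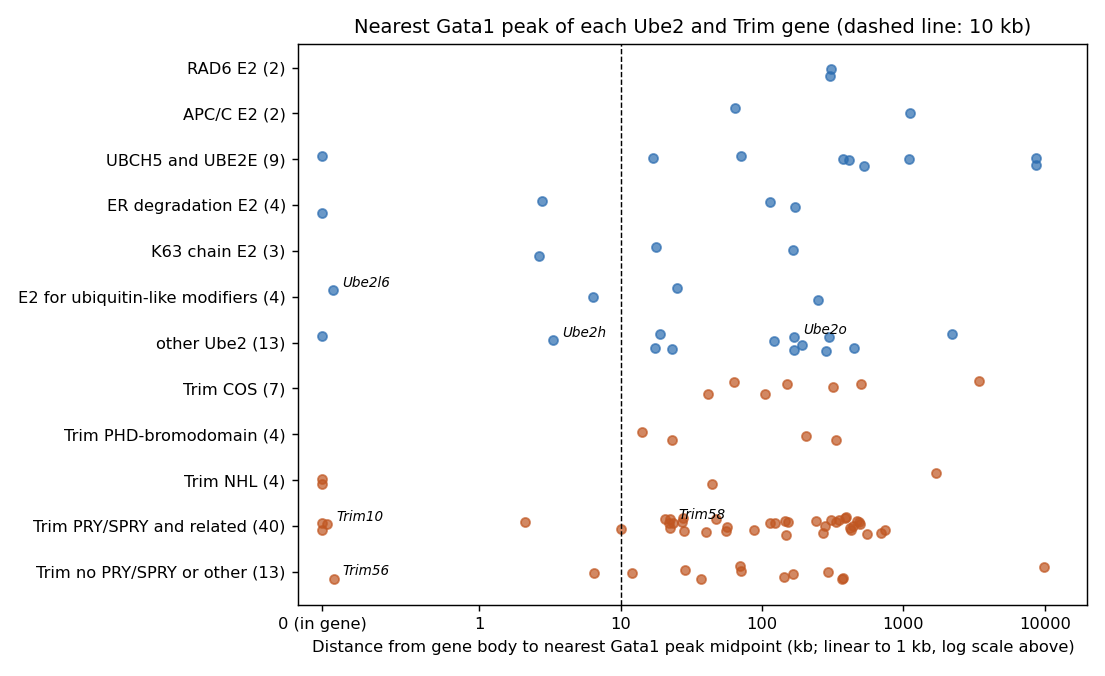
Distance from each gene body to the nearest Gata1 peak midpoint in kb, 1 point per gene, by role group with the number of genes in brackets; the axis is linear to 1 kb and logarithmic above, and the vertical spread of points has no meaning. 16 genes lie left of the dashed 10 kb line, 7 of them with a peak in the gene, and 57 genes lie beyond 100 kb.

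The 10 kb limit separated genes with similar distances. Inside it was Trim8 at 6.54 kb, and just outside was Trim26 at 10.1 kb. Between 10 and 20 kb lay 7 members, Trim26, Trim40, Trim28, Ube2d1 (17.0 kb, with the peak inside Tfam), Ube2t (17.6 kb), Ube2n and Ube2l3 (19.1 kb). A further 17 lay between 20 and 50 kb. At the other extreme, 8 members were over 1 Mb from any peak, the furthest being Trim52 at 9844 kb and the neighbouring X-linked genes Ube2dnl1 and Ube2dnl2 at 8717 and 8720 kb.

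Of the 18 peaks, 7 lay inside a member gene and 11 outside. Of those outside, 3 were within 1 kb of the gene and 8 further away. Where the strand was available, 5 lay upstream and 3 downstream, and for 3 it was not used. Of the 11 peaks at members with an annotated start site, 4 had their midpoint within 500 bases of it (Trim10, Ube2l6, Trim56 and Trim32). This count was not set beside the same count over all peaks. A member was the nearest coding gene for 15 of the 18 peaks. The 3 others were nearer to Ankfy1, Smtnl1 and Ccr4, and 9 peaks had no coding gene other than the member within 10 kb.

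Of the other listed genes of the ubiquitin system, 30 of 102 had a peak (29.4%, 21.4 to 38.9%, beside the background of 16.5%). Counting only genes that are the nearest coding gene to their peak, 19 of 102 did (18.6%, 12.3 to 27.3%), beside 12.3% of all protein-coding genes. The shares of these lists were not matched for gene length. The 10 kb background was 25.0% in the longest quartile, where several CTLH genes lie, among them Mkln1 and Armc8. Of the CTLH ligase, the partner of Ube2h, 6 of 11 genes had a peak within 10 kb (54.5%, 28.0 to 78.7%). Gid4, its substrate receptor, Mkln1 and Ypel5 had a peak inside the gene, and the peaks of Armc8, Ranbp10 and Rmnd5b lay 7.84, 5.57 and 3.99 kb from the gene. Under the nearest-gene count 3 of the 11 remained (27.3%, 9.75 to 56.6%), Gid4 sharing its peak with the overlapping Atpaf2. That count was 3 of 9 for E1 genes, 4 of 14 for cullins and partners, 3 of 12 for modifiers, 5 of 40 for Psma to Psmd genes and 1 of 16 for the anaphase-promoting complex, so the order of the lists depended on the rule. Maea, a catalytic subunit, had none.

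Cullins and their partners had 5 of 14 genes with a peak (35.7%, 16.3 to 61.2%), with peaks inside the scaffold genes Cul3, Cul4a and Cul5 and the adaptor gene Ddb1, and 1 at 7.00 kb from Cul9. Modifier genes had 4 of 12 (Isg15, Rps27a, Sumo3 and Urm1) and E1 genes 3 of 9 (Sae1, Uba3 and Uba7). The intervals of these shares were 13.8 to 60.9% and 12.1 to 64.6%, and both contain the background of 16.5%. The anaphase-promoting complex and its activators had 5 of 16 (31.2%, 14.2 to 55.6%). They were Cdc23, Cdc27, Cdc20, Fzr1 and Anapc7, while its E2s Ube2c and Ube2s had none. Genes with Psma to Psmd symbols, nearly all for proteasome subunits or assembly factors, had 7 of 40 (17.5%, 8.75 to 31.9%), close to the background. The symbol rule also took in Psmc3ip, a meiotic recombination factor, which had no peak in its window. Those with a peak were Psma3, Psmb2, Psmb8, Psmc3, Psmc6, Psmd5 and Psmd7. No test was made between these lists, and in 13 of the 32 gene and peak pairs another coding gene was nearer to the peak.

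**Figure D4:**
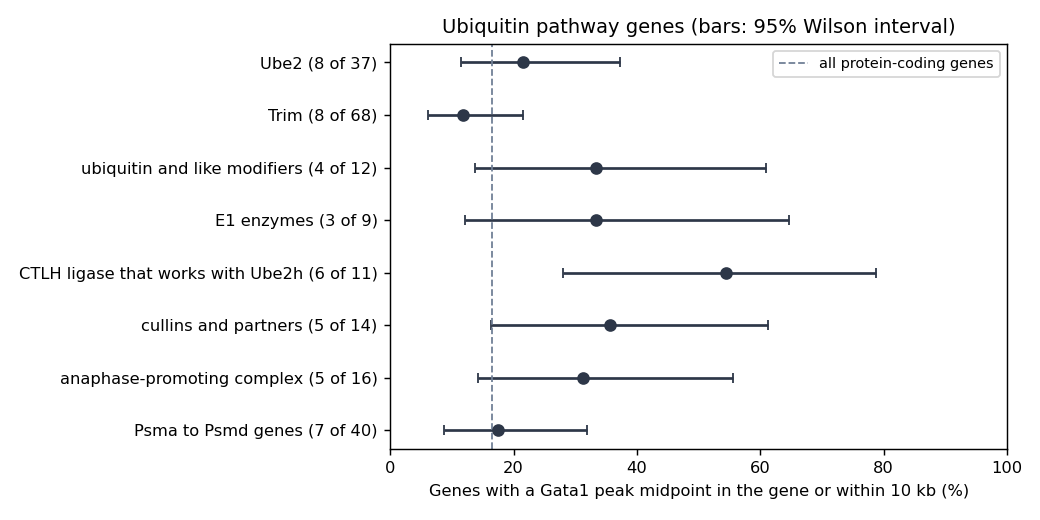
Share of genes with a Gata1 peak (midpoint at most 10 kb from the gene body, %) for Ube2 genes, Trim genes and 6 other lists of the ubiquitin system, with counts in brackets; error bars are 95% Wilson intervals and the dashed line is the share of all protein-coding genes, 16.5%. By this window the CTLH ligase stands highest at 54.5% and Trim genes stand lowest at 11.8%. Counted by nearest gene only, the CTLH share was 27.3%. The shares were not matched for gene length.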

How the data were processed

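The authors deposited 1 list of Gata1 peak positions (chromosome, start and end), with no score, height, p-value or read count. The submitters' processing notes name Bowtie2 2.0.6, MACS2 2.0.10 and genome build mm10. Not given in the sources used here are settings, the peak threshold and how the control entered. All intervals have a width of 400 bp, set before deposit. Cells from several sorts were pooled, per the labels' protocols.

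Genes were placed by a RefSeq table of GRCm38.p6, without exons. Left out were 340 entries with scaffold coordinates (under 3 Mb on autosomes and X) and mitochondrial and unplaced genes. A gene had a peak when a peak midpoint lay inside its body or at most 10 kb outside. Start sites and strands came from the RefSeq promoter windows. Where these were missing, positions are given from the lower-coordinate or higher-coordinate end. The window count was tested on simulated data (200 of 200 genes correct). Python 3.11.15, pandas 2.3.3, numpy 2.4.6, scipy 1.17.1 and matplotlib 3.10.9 were used. No test was run. The limit that a count of 0 allows is 3 counts of the total.

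The members and lists were chosen with earlier results of these data known. Named genes were all members with a peak (1 of them is counted but not reported here), Trim10, Trim58, Ube2h and Ube2o, members within 20 kb of a peak, and genes with a peak on the other lists. Further genes, named for contrast, and the grouping by modifier were chosen after their values were seen. Alternatives were other windows, any overlap, the nearest gene only, close peaks counted once and overlapping windows counted once.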

Additional observations from a re-analysis of the deposited data

How the results depend on the processing

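The counts of members moved with the window and little with the other choices. With the gene body alone, 3 Ube2 genes with 3 peaks and 4 Trim genes with 4 peaks were counted. With 1 kb added, 4 Ube2 genes with 4 peaks were counted. With 50 kb added, there were 14 Ube2 genes with 22 peaks and 26 Trim genes with 26 peaks. A narrower or wider window holds fewer or more peaks by construction. The other 18 of 28 alternative values stayed within 1.5 times the main counts. Any overlap of the interval added Trim26 and gave 9 Trim genes, and counting only the nearest gene gave 7 Ube2 and 7 Trim genes (18.9% and 10.3%, beside 12.3% of all protein-coding genes). A stricter peak threshold was not run, because the list has no score. No paired analysis was possible because there is 1 ChIP library and no test. Depth could not be examined.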

Other observations

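The ISG15 cascade, an antiviral conjugation pathway, had a peak at several of its steps. This grouping was made after the values were seen and has no test. Within 10 kb, peaks were called at the modifier gene Isg15 (1 peak, 1.83 kb away), the E1 gene Uba7 (2 peaks, 1 in the gene), the E2 gene Ube2l6 (2 peaks) and the ligase gene Trim25 (1 peak in the gene). None was called at Herc6, the main mouse ISG15 ligase (nearest at 657 kb), or Usp18, the ISG15 protease (169 kb), giving 4 of 6 genes, beside 16.5% of all protein-coding genes. The Isg15 peak was nearer to Perm1, and 1 of the Uba7 peaks was nearer to Inka1. In the NEDD8 cascade 1 of 5 genes had a peak (Uba3).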
